A study of Arabidopsis with 12 samples.

Results

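The comparison described here covers 1 h of light in the flu mutant of Arabidopsis, in 6 of the 12 RNA-seq libraries of the study. Of these, 3 came from flu seedlings after 4 h of darkness (flu dark) and 3 from flu seedlings given 1 h of light after the same 4 h (flu light). The members were chosen by the labels of the libraries alone, and no other genotype was used. Seedlings of both groups were grown in continuous light and carry flu, with no further allele and no agent added. The plants were 7 d old by the titles of the samples, although the series' own design text makes them 1 d younger. The titles call the material seedlings while the tissue label is leaf, and the labels do not say whether the 3 libraries of a group came from separate cultures, so p-values measure the spread between these libraries, which may be technical. Levels are in TPM, a share of each library's transcripts corrected for length, summed over the transcripts of each locus, and changes are differences of log2(TPM + 1) between flu light and flu dark, given with their standard error (SE). Levels written with ± are means with the SD over the 3 libraries of a group.

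FLU is a plastid membrane protein that acts as a brake on tetrapyrrole synthesis, the pathway that leads to chlorophyll and haem. In darkness the last step towards chlorophyllide cannot proceed because it needs light, and in flu the precursor protochlorophyllide accumulates. When light returns, this pigment transfers energy to oxygen, and singlet oxygen forms inside the chloroplast within minutes. Seedlings of flu are therefore used to follow how a plastid signal changes nuclear gene expression. Lit seedlings also receive the signals of phytochromes and cryptochromes, and resume photosynthesis. Neither a wild type nor a flu group left in the dark for the further hour was analysed here, so light, singlet oxygen and time cannot be told apart in any result below. In bulk samples, fewer cells of a type and less RNA per cell cannot be told apart either.

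Of 27655 genes, 19187 (69.4%) were at 1 TPM or more in at least 3 of the 6 libraries and were tested with limma. After light 5005 genes were higher, 26.1% of those tested, and 5809 were lower, 30.3%, at an adjusted p below 0.05. Most of these changes were small: 8309 of the 10814 were under 2-fold. With a change of at least 2-fold on the log2(TPM + 1) scale, 1798 genes were higher (9.37%) and 707 were lower (3.68%). In 2500 of these 2505 the 3 lit libraries did not overlap the 3 dark ones, as in 64.3% of all genes tested. Single genes below were mostly named by a rule that required no overlap, so its absence in them is no further result. The asymmetry between rises and falls grew with size. By at least 4-fold 692 genes rose and 72 fell, and by at least 8-fold 272 rose and 10 fell. The split of all calls depends on scaling: under quantile normalization the median over all genes was -0.12 in place of -0.037, with 4341 higher and 7883 lower genes, and under median-ratio scaling it was 0.001, with 5620 higher and 5102 lower genes, so the larger side changed.

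The genes that rose at least 2-fold took 2.74 ± 0.0699% of all TPM in flu dark and 12.1 ± 0.0412% in flu light (SD, n = 3). The genes that fell at least 2-fold took 5.06 ± 0.0753% and 1.85 ± 0.00211%. Of the rises, 650 started from a dark mean of 10 TPM or more and 326 from under 1 TPM, of which 32 were listed at 0 in every dark library. Of the falls, 519 started from 10 TPM or more, and 77 ended under 1 TPM.

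**Figure D1:**
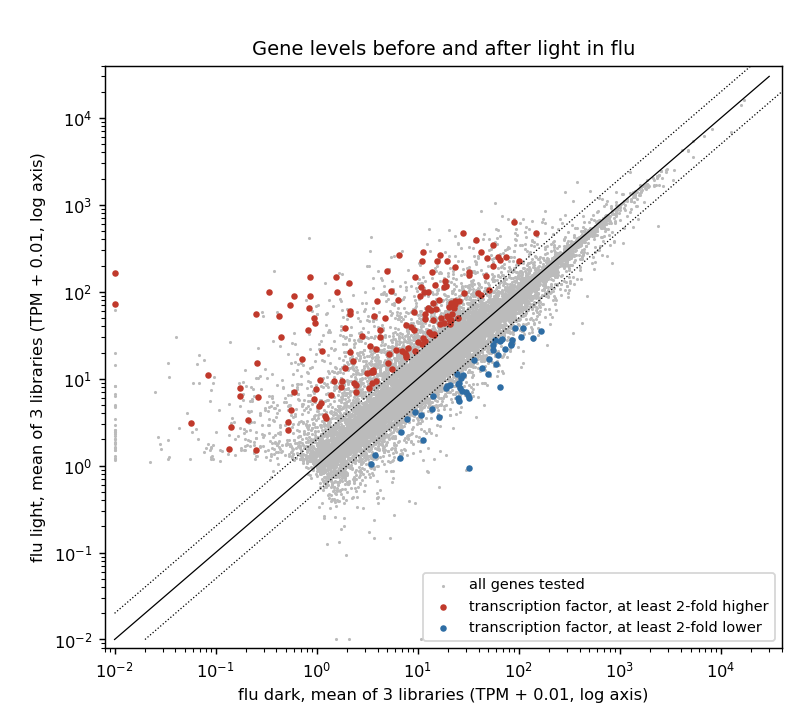
Mean level of each of the 19187 genes tested in flu dark (x) and flu light (y), in TPM + 0.01 on log axes, means of 3 libraries. The solid line marks equal levels and the dotted lines a 2-fold difference, and genes of transcription factor families changed at least 2-fold are coloured. Red points lie up to the left, from dark levels near 0 to about 100 TPM, and blue points lie below the lower dotted line, mostly from dark levels above 10 TPM.

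Replicates correlated at 0.992 to 0.996 over genes. Replicate 3 of flu dark stood further from its group than any other library, with a median absolute log2 difference of 0.155 and 0.152 from replicates 1 and 2, against 0.0657 to 0.0723 between the other pairs of a group. Without it, 5246 genes were higher and 7069 lower, and 1748 and 662 by at least 2-fold. Transcripts of the leaf mesophyll markers (RBCS1A, CA1, GAPA, GAPB and PSAD-1) summed to 23031 ± 417 to 22137 ± 889.8 TPM, and 1 of the 5 was called, CA1, with a log2 change of -0.098 that was lost or turned to 0.11 under other settings. Seedling tissues besides leaf were present. Of 7 root markers 4 were tested, and the list summed to 26.7 ± 2.05 to 26.8 ± 0.549 TPM. This level sum rested on SCR, the most abundant, which was higher (log2 change 0.42). EXPA7, CASP1 and EXPA18 were lower (log2 changes -1.196, -0.86 and -0.83). The untested SHV2, MYB36 and RSL4, all weakly expressed, were also lower in every lit library than in any dark one. The sum therefore does not show that root transcripts were steady. The seed markers summed to 71.1 ± 2.71 to 23.8 ± 3.23 TPM. Summed vascular markers went from 637 ± 5.25 to 484 ± 4.51 TPM, with 4 of 7 lower, beside 30.3% of all genes, and none by 2-fold. The part of tissue makeup in the results was not tested.

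The families counted here, with the VQ cofactors of WRKY factors included, held 648 tested genes of 897, of which 153 (23.6%) rose and 48 (7.41%) fell at least 2-fold, against 9.37% and 3.68% of all genes. By at least 4-fold, 81 rose and 9 fell. A pseudocount of 5 TPM, which shrinks the changes of weakly expressed genes, lowered several of the family counts given below: 12 NAC, 9 MYB, 7 DREB and CBF and 2 VQ genes then rose at least 2-fold, and 7 bHLH and 3 homeodomain genes fell. Transcripts of all these 897 genes together went from 13921 ± 403 to 22077 ± 97.5 TPM. The balance differed by family, from C2H2 zinc fingers of the ZAT and AZF type, where 7 of 8 tested members rose, to trihelix factors, where none rose and 3 of 7 fell.

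**Figure D2:**
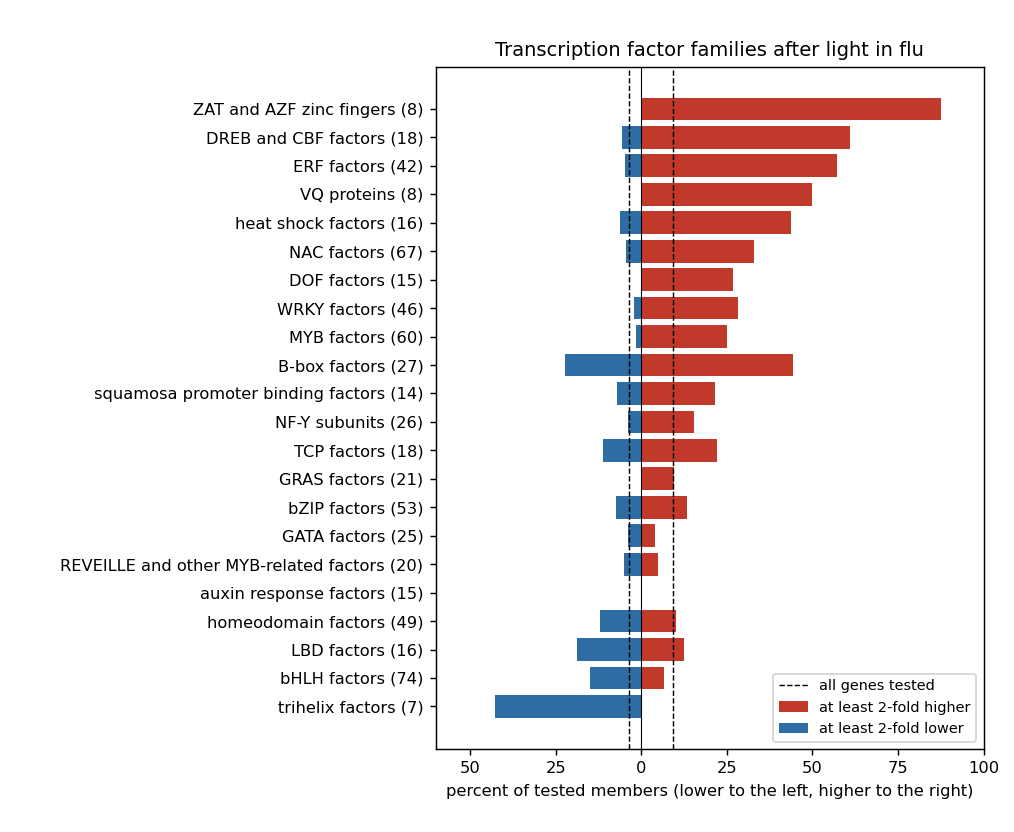
Percent of the tested members of each transcription factor family that were at least 2-fold higher (red, right) or lower (blue, left) in flu light than in flu dark, with the number tested in brackets. Dashed lines mark the 9.37% and 3.68% of all genes tested. Members were found by symbol, so a family may lack some of its genes. ZAT and AZF zinc fingers, DREB and CBF factors and ERF factors reach furthest right (87.5%, 61.1% and 57.1%), and trihelix factors furthest left (42.9%).

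WRKY factors bind W-box elements in the promoters of defence genes and act in immunity and abiotic stress. Of 46 tested members 13 rose and 1 fell at least 2-fold, with a median change of 0.33 against -0.037 over all genes, and their summed level went from 614 ± 25.04 to 2266 ± 8.42 TPM. WRKY46, a regulator in basal defence and drought, was at 1.36, 1.68 and 1.704 TPM in the dark libraries and at 96.03, 98.03 and 103 TPM in the lit ones. WRKY40, which acts with WRKY18 in repressing defence and abscisic acid genes, was at 10.8, 11.2 and 11.5 TPM in the dark and at 278, 285 and 291 TPM in the light. In both genes every lit library was far above every dark one, with log2 changes of 5.28 ± 0.076 and 4.55 ± 0.048 (adjusted p = 8.8e-11 and 6.4e-11). The related WRKY18 went from 15.7 ± 0.998 to 224 ± 5.27 TPM, WRKY53, a regulator of leaf senescence, from 5.41 ± 0.19003 to 102 ± 2.29 TPM, and WRKY11 from 18.02 ± 0.325 to 112 ± 3.96 TPM. WRKY45 was the member that fell, from 25.95 ± 3.603 to 7.86 ± 0.913 TPM (log2 change -1.602 ± 0.11). SIB1, a VQ protein that binds WRKY33 and also enters the plastid, went from 1.88 ± 0.199 to 38.3 ± 2.54 TPM, and 4 of 8 tested VQ genes rose at least 2-fold.

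ERF and DREB factors share the AP2 DNA-binding domain. ERF factors bind GCC-box elements and include activators and repressors, and DREB factors bind dehydration-responsive elements. Of the ERF genes 24 of 42 rose and 2 fell, and of the DREB and CBF genes 11 of 18 rose and 1 fell, with medians of 1.37 and 1.703. ERF98 (TDR1 in RefSeq), which activates ascorbate synthesis genes, was at 0.899, 0.9001 and 0.764 TPM in the dark and at 84.2, 95.2 and 90.6 TPM in the light. DREB2A, the activator of drought and heat response genes, was at 1.91, 2.23 and 2.11 TPM in the dark and at 122, 128 and 128 TPM in the light. The lit libraries lay well apart from the dark ones in both (log2 changes 5.62 ± 0.077 and 5.36 ± 0.065). ERF13 rose from 0.835 ± 0.222 to 64.4 ± 1.83 TPM, ERF11, a repressor of ethylene synthesis, from 2.13 ± 0.313 to 59.6 ± 1.92 TPM, and ERF4, a repressor with an EAR motif, from 19.5 ± 1.002 to 227 ± 14.9 TPM. The cold response activators CBF1, CBF2 and CBF3 (DREB1A) lie side by side and are near copies, so reads may have been shared among them; CBF2 went from 0.938 ± 0.145 to 49.8 ± 3.005 TPM. Members were found by symbol, and among these the falls of at least 2-fold were those of ORA59, which joins jasmonate and ethylene signals, from 11.2 ± 1.63 to 1.95 ± 0.446 TPM, of ESE3, from 16.2 ± 1.43 to 3.59 ± 0.0699 TPM, and of DREB26, from 25.5 ± 1.62 to 5.46 ± 0.502 TPM.

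NAC factors take part in stress responses, senescence and the return of signals from mitochondria and the endoplasmic reticulum. Of 67 tested genes 22 rose and 3 fell at least 2-fold, and their summed level went from 826 ± 18.6 to 2561 ± 27.1 TPM. NAC032 was at 16.7, 15.9 and 16.6 TPM in the dark and at 262, 273 and 259.8 TPM in the light, and its close relative ATAF1 at 36.2, 38.8 and 36.8 and then 385, 395 and 387 TPM. Neither gene showed any overlap between groups, at log2 changes of 3.93 ± 0.048 and 3.35 ± 0.044. NAC062, which is held at membranes and released in cold and endoplasmic reticulum stress, went from 18.5 ± 1.38 to 133 ± 5.11 TPM, and NAC13, the regulator of mitochondrial stress genes, from 12.6 ± 0.682 to 63.02 ± 2.397 TPM. ORE1 (NAC6 in RefSeq), the activator of leaf senescence, moved the other way and fell from 32.2 ± 2.65 to 6.03 ± 0.611 TPM (log2 change -2.24 ± 0.091, adjusted p = 4.9e-08).

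All but 1 of the 8 tested ZAT and AZF genes rose at least 2-fold. These small zinc finger proteins carry EAR repression motifs and respond to salt, cold and reactive oxygen. ZAT11 was at 0.612, 0.611 and 0.366 TPM in the dark and at 69.8, 71.2 and 70.1 TPM in the light. ZAT10 (STZ) was at 11.4, 9.92 and 11.9 TPM in the dark and at 218, 237 and 232 TPM in the light. Both sets of lit libraries lay above all dark ones, and the summed level of the family went from 41.6 ± 0.711 to 808 ± 20.8 TPM. ZF3 was the tested member that was not called, at a log2 change of 0.17 ± 0.069.

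Among MYB genes 15 of 60 rose and 1 fell at least 2-fold. MYB74 rose from 0.959 ± 0.268 to 43.5 ± 3.17 TPM and MYB15, an activator of lignin genes in immunity, from 2.104 ± 0.0723 to 55.5 ± 1.63 TPM. MYB96, which activates wax synthesis and links it to abscisic acid, went from 10.4 ± 0.9204 to 89.7 ± 1.41 TPM, and MYB51, an activator of indole glucosinolate synthesis, from 12.7 ± 1.14 to 64.6 ± 1.19 TPM. MYB70 was the one that fell, from 13.7 ± 0.694 to 4.41 ± 0.5998 TPM. Of 16 heat shock factors, which bind heat shock elements, 7 rose, among them HSFC1 from 11.6 ± 0.796 to 100.1 ± 0.782 TPM and HSFA6B from 0.254 ± 0.0911 to 6.18 ± 0.629 TPM, while HSFA7A fell from 20.8 ± 1.504 to 8.56 ± 0.334 TPM. In the DOF family 4 of 15 rose, DOF1 from 9.27 ± 0.8598 to 148 ± 4.54 TPM and the repressors of flowering CDF1 and CDF3 from 6.41 ± 0.652 to 80.2 ± 2.39 TPM and, in turn, from 9.21 ± 0.341 to 57.9 ± 2.21 TPM.

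Members of the bZIP family moved both ways. Among those that act in abscisic acid signalling, ABF3 rose from 12.7 ± 0.185 to 98.8 ± 4.58 TPM, ABF2 from 16.1 ± 1.42 to 79.5 ± 2.09 TPM, ABI5 from 1.47 ± 0.185 to 9.48 ± 0.858 TPM and the G-box factor GBF3 from 10.8 ± 0.1103 to 113 ± 3.35 TPM, while ABF1, with a log2 change of 0.097, did not pass the test. ABF4 and AREB3 passed with small log2 changes of 0.24 and -0.26, calls that were lost when single libraries were left out. BZIP60, which is activated by splicing when unfolded proteins build up in the endoplasmic reticulum, went from 42.5 ± 1.36 to 285 ± 4.43 TPM. Of the factors of the low-energy response, bZIP1 fell from 84.2 ± 3.18 to 24.3 ± 0.657 TPM and bZIP63 (BZO2H3) from 109.9 ± 4.86 to 37.9 ± 1.27 TPM, and bZIP11 (GBF6) rose by 0.92 on the log2 scale. Over the family 7 of 53 tested rose and 4 fell at least 2-fold, and the median change was 0.011.

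**Figure D3:**
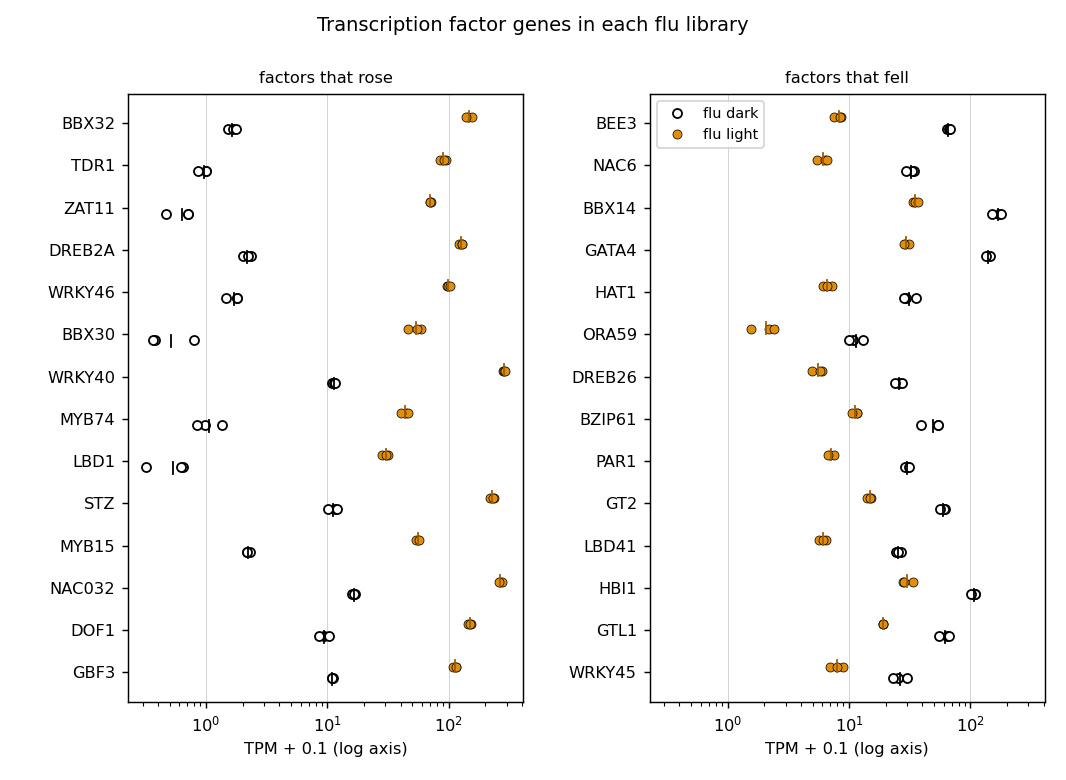
Level of 14 transcription factor genes that rose (left) and 14 that fell (right) in every flu library, in TPM + 0.1 on a log axis; open circles are flu dark, filled circles flu light, and short lines the means of 3 libraries. TDR1 is ERF98, STZ is ZAT10 and NAC6 is ORE1. In none of the 28 genes do the groups overlap, but genes were named with their values known, by a rule that required this. That rule also asked for 5 TPM in the higher group, so factors that fell could not start from low dark levels.

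Basic helix-loop-helix (bHLH) factors, many of which act in growth responses to light and hormones, were a large family in which falls outnumbered rises: 11 of 74 tested fell and 5 rose at least 2-fold, with a median of -0.18. BEE3, a promoter of growth that is induced by brassinosteroid, was at 63.7, 66.4 and 67.2 TPM in the dark and at 8.41, 7.46 and 8.402 TPM in the light. HBI1, which sets growth against immunity, was at 108, 109 and 100.4 TPM in the dark and at 27.7, 33.4 and 28.4 TPM in the light. The lit libraries of both genes lay below all dark ones (log2 changes -2.88 ± 0.065 and -1.798 ± 0.075). BEE2 fell from 83.7 ± 2.17 to 24.8 ± 0.291 TPM, PAR1, which is induced rapidly in shade, from 30.2 ± 1.13 to 6.98 ± 0.444 TPM, and PIF1 (PIL5), a phytochrome-interacting repressor of chlorophyll synthesis and germination, from 19.1 ± 1.33 to 7.71 ± 0.163 TPM. Rises were those of MYC2, the master regulator of jasmonate responses, of bHLH34 from 7.705 ± 0.234 to 41.7 ± 0.138 TPM, of BIM1, a partner of brassinosteroid factors, from 23.4 ± 3.17 to 71.3 ± 0.461 TPM, of PYE, a repressor in iron deficiency, from 12.99 ± 1.63 to 34.3 ± 0.876 TPM, and of AIB from 13.6 ± 1.43 to 32.5 ± 0.894 TPM.

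Homeodomain factors moved both ways, with 6 of 49 lower and 5 higher at least 2-fold, a median of -0.16, and a summed level that went from 1086 ± 19.8 to 1598 ± 18.03 TPM. The falls included HAT1, HAT2 and HAT3, class II HD-ZIP genes that respond to shade and auxin, from 31.1 ± 3.72 to 6.54 ± 0.555 TPM, 26.6 ± 2.08 to 10.1 ± 1.24 TPM and 19.6 ± 1.18 to 8.304 ± 0.473 TPM in turn. The rises included HB-7 and HB-12, class I HD-ZIP genes induced by water deficit and abscisic acid, from 18.99 ± 0.396 to 117 ± 2.77 TPM and, in turn, from 23.6 ± 0.943 to 193 ± 5.38 TPM. Trihelix factors, which bind GT elements of light-regulated promoters, were lower in 6 of 7 members, 3 by at least 2-fold, and higher in none. Of all genes 30.3% were lower. GT2 went from 59.2 ± 2.96 to 14.7 ± 0.631 TPM and GTL1, a repressor of trichome growth, from 62.1 ± 6.09 to 18.9 ± 0.0912 TPM. Among LBD factors, LBD37, LBD38 and LBD39, repressors of anthocyanin and nitrate genes, were all lower, with log2 changes of -1.57, -0.65 and -1.22, and the hypoxia-responsive LBD41 went from 25.3 ± 1.29 to 5.97 ± 0.392 TPM. LBD1 went the other way, from 0.4298 ± 0.183 to 29.98 ± 1.57 TPM. GATA4 fell from 139 ± 5.71 to 29.5 ± 1.49 TPM, while in the GATA family as a whole 1 of 25 members rose and 1 fell at least 2-fold.

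B-box factors take part in light signalling together with HY5, some promoting and some restraining seedling greening. They moved in both directions, 12 of 27 higher and 6 lower at least 2-fold. Of the 13 tested members without a CCT domain, BBX18 to BBX32, 10 rose and 2 fell, and of the 14 with one, BBX1 to BBX17, 2 rose and 4 fell, with medians of 1.22 and -0.12. BBX32, a restraint on light responses, was at 1.41, 1.55 and 1.68 TPM in the dark and at 145, 154 and 139 TPM in the light. BBX14 was at 173, 179 and 150.4 TPM in the dark and at 33.6, 34.5 and 37.2 TPM in the light. The groups lay apart in both genes and in opposite order (log2 changes 5.85 ± 0.071 and -2.22 ± 0.072). BBX30, a microprotein of the family, went from 0.417 ± 0.248 to 53.2 ± 6.3 TPM, BBX18 from 3.68 ± 0.223 to 52.1 ± 2.79 TPM and BBX16 from 2.26 ± 0.191 to 16.1 ± 1.28 TPM. BBX17, BBX15 and BBX27 fell, with log2 changes of -1.78, -1.69 and -1.62.

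In several further families few members changed 2-fold. None of 15 auxin response factors changed 2-fold, nor did any of the 3 annotated CAMTA factors, calmodulin-binding activators of rapid stress genes, although all 3 were higher, by 0.83 for CAMTA3 (SR1), 0.77 for CAMTA2 and 0.43 for CAMTA1 (EICBP.B) on the log2 scale. NF-YB2, a subunit of the CCAAT-binding complex that promotes flowering, went from 55.3 ± 4.14 to 347 ± 2.67 TPM, and NF-YC2 from 1.11 ± 0.183 to 20.9 ± 3.64 TPM. GRAS factors rose at least 2-fold in 2 of 21 tested (9.52%, beside 9.37% of all genes) and fell in none. TCP and SPL factors, small families, changed in larger shares: 4 of 18 TCP genes rose (22.2%) and 2 fell (11.1%), and 3 of 14 SPL genes rose (21.4%) and 1 fell (7.14%), beside 3.68% of all genes that fell.

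Genes for abscisic acid signalling moved in opposite directions by role. This hormone of drought and dormancy is bound by PYR/PYL receptors, which then inhibit clade A PP2C phosphatases and so release SnRK2 kinases. All 7 tested phosphatase genes rose at least 2-fold, with a median of 2.84, and their summed level went from 112 ± 14.03 to 786 ± 12.8 TPM. Of the 9 tested receptors 5 fell at least 2-fold, with a median of -1.296 and a sum that went from 667 ± 1.69 to 298 ± 1.899 TPM. PP2CA was at 20.4, 19.97 and 15.7 TPM in the dark and at 283, 298 and 286 TPM in the light, and HAI1 at 1.32, 1.41 and 1.54 and then 65.8, 68.5 and 68.9 TPM. PYL5 was at 68.5, 69.3 and 65.9 TPM in the dark and at 12.5, 13.004 and 11.4 TPM in the light, and PYL8 (RCAR3) at 294, 293 and 280.2 and then 106, 104 and 105 TPM. Of these 4 genes, named for changes without overlap, the phosphatases were higher and the receptors lower in the light. PYL7 and PYL9 (RCAR1) were the receptors that rose, by 0.84 and 0.63 on the log2 scale.

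Genes of both the synthesis and the breakdown of abscisic acid rose, though not all of them. NCED3, the rate-limiting enzyme of its synthesis under drought, went from 0.974 ± 0.295 to 68.5 ± 0.484 TPM (log2 change 5.15 ± 0.11), and CYP707A3, which inactivates the hormone, from 2.73 ± 0.137 to 34.1 ± 1.17 TPM. Of the 9 genes listed for synthesis and breakdown 5 rose at least 2-fold and none fell 2-fold; with a pseudocount of 5 TPM 3 rose. Among synthesis genes ABA1, zeaxanthin epoxidase, rose by 1.17 on the log2 scale, ABA2 was lower (-0.54) and ABA3, at 0.029, did not pass the test. Late embryogenesis abundant proteins, hydrophilic protectants of dehydrating cells many of which respond to this hormone, rose at least 2-fold in 11 of 15 tested genes and fell in none, and their summed level went from 796 ± 6.302 to 3469 ± 73.9 TPM. ERD10, a dehydrin, was at 58.6, 60.1 and 57.02 TPM in the dark and at 1103, 1002 and 1057 TPM in the light, and ERD14, a further abundant dehydrin, went from 347 ± 23.5 to 1107 ± 20.7 TPM. LEA4-5 and LEA3 rose from 2.16 ± 0.174 to 39.2 ± 4.01 TPM and, in turn, from 10.2 ± 0.241 to 113 ± 4.24 TPM, and COR15A, a plastid protein of freezing tolerance, from 4.13 ± 2.2004 to 59.1 ± 1.395 TPM.

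Jasmonate synthesis begins in the plastid with lipoxygenases and ends in the peroxisome. Of its 11 listed genes 6 rose at least 2-fold and none fell 2-fold. LOX4 was at 3.19, 3.38 and 2.64 TPM in the dark and at 74.98, 74.1 and 74.6 TPM in the light, with no overlap (log2 change 4.22 ± 0.08). JAR1, which joins jasmonate to isoleucine to make the active form, went from 21.6 ± 3.104 to 97.98 ± 0.824 TPM, and OPCL1, an enzyme of the peroxisomal steps, from 9.46 ± 0.936 to 57.9 ± 1.41 TPM. LOX2, the most abundant of the listed lipoxygenases in the dark by TPM, fell from 128 ± 14.1 to 66.8 ± 1.11 TPM (log2 change -0.92 ± 0.076). JAZ proteins hold jasmonate responses in check, and 2 of 11 rose at least 2-fold, JAZ1 from 15.03 ± 1.58 to 126 ± 3.65 TPM and JAZ5 from 2.32 ± 0.3801 to 25.4 ± 0.846 TPM. JAZ3, JAZ6, JAZ8, JAZ9 (TIFY7) and JAZ11 did not pass the test, with log2 changes between -0.11 and 0.27.

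The ethylene genes were split between synthesis and signalling. ACS6, an ACC synthase that is stabilised by MAP kinases, was at 7.26, 8.22 and 7.32 TPM in the dark and at 103, 101 and 106 TPM in the light. EBF2, an F-box protein that removes the ethylene factor EIN3, was at 130.2, 130.2 and 121 TPM in the dark and at 33.3, 33.9 and 34.3 TPM in the light. The order of the groups was opposite in these genes, with no overlap (log2 changes 3.603 ± 0.063 and -1.88 ± 0.05). Of the 11 signalling genes listed, 7 were lower and none higher, beside 30.3% and 26.1% of all genes. By at least 2-fold 3 fell: EBF2, the receptor ETR2 from 12.5 ± 1.01 to 4.22 ± 0.1902 TPM and the factor EIL1 from 78.2 ± 5.001 to 29.8 ± 0.906 TPM.

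Gibberellin oxidases moved both ways. Of 4 tested GA2-oxidases, which inactivate the hormone, 3 were higher and GA2OX4, at 0.23 on the log2 scale, did not pass the test. GA2OX6 was at 4.94, 4.95 and 3.68 TPM in the dark and 93.9, 97.3 and 99.2 TPM in the light, and GA2OX2 went from 2.61 ± 0.287 to 16.2 ± 0.986 TPM. Of the enzymes that make it, GA20OX2 fell from 4.08 ± 0.0705 to 0.422 ± 0.166 TPM and GA3OX1 from 2.73 ± 0.175 to 0.836 ± 0.107 TPM, both at low levels; with a pseudocount of 5 TPM neither reached 2-fold. Only 6 of the 16 oxidase genes passed the filter. Of 6 brassinosteroid synthesis genes 5 were lower, none by 2-fold, beside 30.3% of all genes. CPD, from 228 ± 5.11 to 124 ± 0.909 TPM, had the largest change. Type-A response regulators, the primary response genes of cytokinin, rose in 5 of 8 tested members and fell in 2, all under 2-fold. Of all genes 26.1% rose and 30.3% fell. In the list for salicylic acid and the immune node 5 of 13 rose at least 2-fold, among them the activator SARD1 from 1.71 ± 0.232 to 10.2 ± 0.6296 TPM and PAD4 from 7.15 ± 0.645 to 23.7 ± 0.997 TPM. The late defence markers PR1 and PR2 (BGL2) fell, from 33.3 ± 1.28 to 14.2 ± 1.05 TPM and, in turn, from 19.2 ± 4.85 to 8.04 ± 1.29 TPM. A further such marker, PR5, did not pass the test (log2 change -0.12), nor did EDS16 (-0.066) and NPR4 (0.072).

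**Figure D4:**
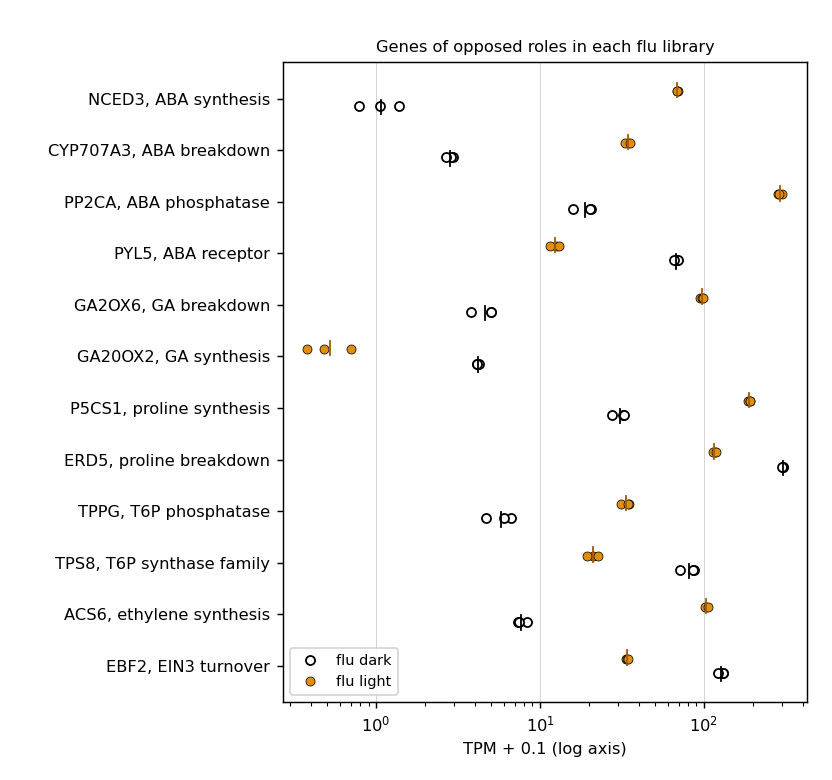
Level of 12 genes with opposed roles in every flu library, in TPM + 0.1 on a log axis; open circles are flu dark, filled circles flu light, short lines the means of 3 libraries. ABA is abscisic acid, GA gibberellin and T6P trehalose 6-phosphate. In each of the 12 genes, chosen with their values known, the groups lie apart. PYL5, GA20OX2, ERD5, TPS8 and EBF2 are the ones lower in the light.

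SAUR genes, small and rapidly regulated targets of auxin that promote cell expansion, formed the most frequent falls of any family by number, 28 of 60 tested at least 2-fold, with 9 rises and a median of -0.91. Most are weakly expressed, and with a pseudocount of 5 TPM 8 fell at least 2-fold. SAUR16 was at 33.4, 35.6 and 31.3 TPM in the dark and at 9.14, 7.47 and 7.24 TPM in the light, and SAUR57 at 15.9, 17.4 and 16.7 and then 1.64, 1.24 and 1.48 TPM. SAUR48 was at 0.195, 0 and 0.187 TPM in the dark and at 24.3, 26.1 and 29.4 TPM in the light, and SAUR72 went from 4.45 ± 0.195 to 28.9 ± 2.75 TPM. Groups did not overlap in these genes, although the direction differed between them. SAUR19 to SAUR22 are near copies, so the levels of single members there are uncertain. Aux/IAA repressors were balanced, 2 of 23 higher and 2 lower at least 2-fold, IAA6 and IAA19 up by 1.08 and 1.03 and IAA29 and IAA4 (ATAUX2-11) down, with log2 changes of -1.56 and -1.48.

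Calcium and kinase signalling genes rose far more often than they fell. Calmodulins and calmodulin-like proteins bind calcium and pass its signal to targets, and 9 of 19 tested rose and 2 fell at least 2-fold. CML37 was at 0.415, 0.321 and 0.4402 TPM in the dark and at 56.3, 60.1 and 59.9 TPM in the light, and CML38 at 8.75, 7.15 and 6.93 and then 112, 118 and 110.01 TPM. The touch-induced TCH3, already abundant, went from 286 ± 21.7 to 1388 ± 19.5 TPM. No overlap was seen in these genes, while CML30 and CML41 fell, from 16.4 ± 0.873 to 2.87 ± 0.841 TPM and, in turn, from 11.3 ± 0.616 to 4.03 ± 0.636 TPM. Calmodulins CAM1 to CAM7 encode near-identical proteins and their reads may be shared, so their separate values are uncertain.

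MAP kinase cascades relay stress signals through 3 tiers, and each tier held rises and no 2-fold fall: 4 of 18 kinases, 3 of 7 kinase kinases and 6 of 18 kinase kinase kinases. MPK3, the kinase of immune and stress signalling, was at 64.3, 64.5 and 55.4 TPM in the dark and at 419, 407 and 426 TPM in the light, and MPK11 went from 1.15 ± 0.421 to 21.5 ± 0.959 TPM. MKK4, one of the kinases that activate MPK3, went from 10.1 ± 1.57 to 53.9 ± 1.02 TPM, and the abscisic acid-responsive MAPKKK18 from 0.623 ± 0.144 to 19.2 ± 0.942 TPM. Cysteine-rich receptor kinases, membrane receptors implicated in reactive oxygen signalling, rose at least 2-fold in 12 of 30 tested genes and fell in none. CRK10 was at 12.1, 11.5 and 9.68 TPM in the dark and at 123.5, 125 and 127 TPM in the light, and CRK11 and CRK14 rose from 11.7 ± 0.473 to 64.2 ± 1.13 TPM and, in turn, from 3.11 ± 0.525 to 18.3 ± 0.885 TPM. Calcium-dependent kinases rose in 5 of 24, CIPK kinases in 6 of 24 with 2 falls, wall-associated kinases in 3 of 7 and receptor-like proteins in 7 of 36, or 1 with a pseudocount of 5 TPM.

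**Figure D5:**
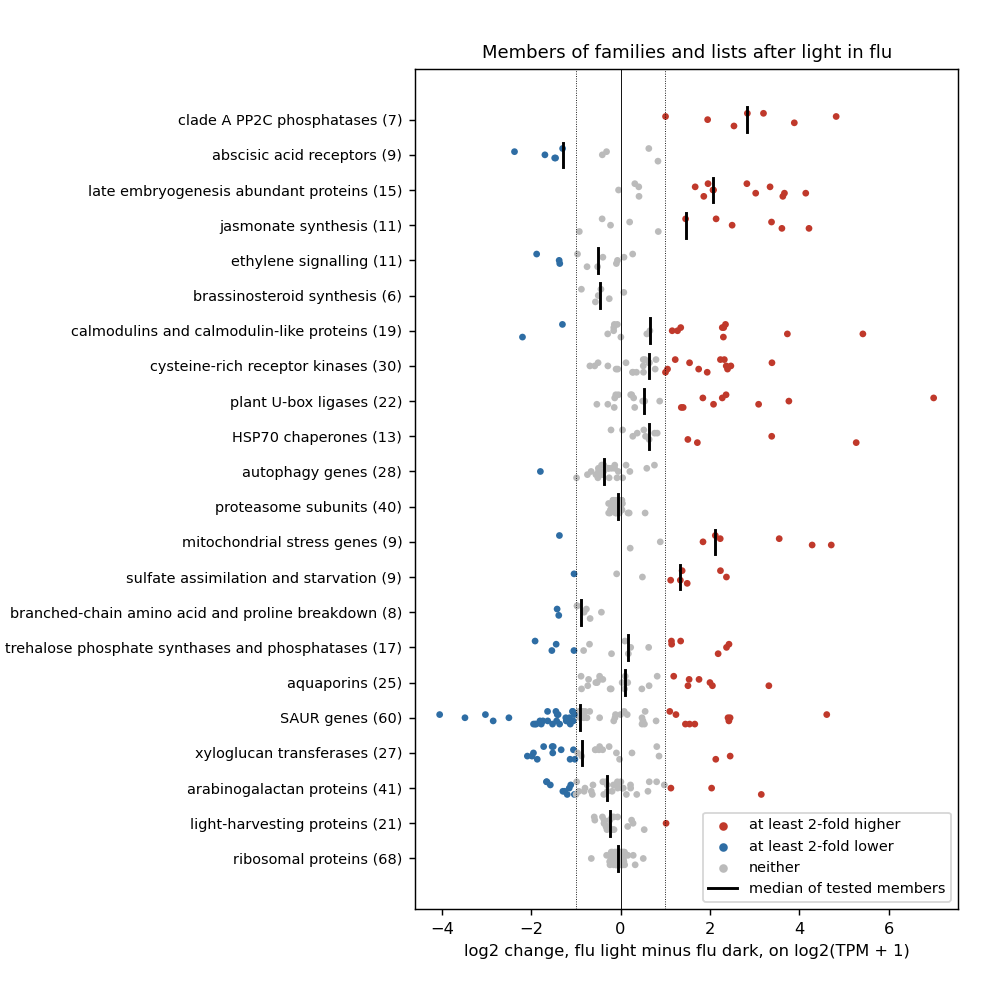
Change of every tested member of 22 families and lists, as the log2 difference of flu light minus flu dark on log2(TPM + 1); the number tested is in brackets, dotted lines mark 2-fold, and black bars the medians. Clade A PP2C phosphatases and late embryogenesis abundant proteins lie to the right (medians 2.84 and 2.07), abscisic acid receptors, SAUR genes and xyloglucan transferases to the left, and proteasome subunits and ribosomal proteins close to 0.

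In protein quality control, rises of at least 2-fold were found among chaperones and ubiquitin ligases, and none among proteasome subunits. Plant U-box ligases, single-subunit enzymes that mark proteins for breakdown, rose at least 2-fold in 9 of 22 tested genes and fell in none. ATL ligases, membrane-bound enzymes with a RING domain, moved both ways, 4 of 14 rising and 3 falling at least 2-fold with a median of 0.038: ATL2 rose from 17.2 ± 0.511 to 80.8 ± 3.91 TPM and ATL8 fell from 13.4 ± 1.11 to 2.38 ± 0.518 TPM. HSP90 genes rose in 3 of 7 and HSP70 genes in 4 of 13, and their summed levels went from 448 ± 29.5 to 1266 ± 15.6 TPM and from 1602 ± 65.04 to 2699.99 ± 25.7 TPM. Of the small heat shock proteins that RefSeq names, 5 of 7 were tested and 4 rose; HSP17.6A was at 0.587, 1.01 and 1.36 TPM in the dark and at 54.3, 58.1 and 54.3 TPM in the light, without overlap. In the endoplasmic reticulum list BZIP60 and TIN1 rose at least 2-fold, while the chaperone genes BIP1 and BIP2 rose by 0.52 and 0.82 on the log2 scale. None of 40 proteasome subunits changed 2-fold. At any size 3 were higher (RPN12b, ATS9 and RPN13, log2 changes 0.55, 0.19 and 0.17) and 11 lower, beside 26.1% and 30.3% of all genes. The calls of ATS9 and RPN13 were lost when single libraries were left out. Autophagy genes, which deliver cell contents to the vacuole, were lower in 17 of 28 and higher in 2, beside 30.3% and 26.1% of all genes. Only 1 fell at least 2-fold, ATG8E, at 306, 305 and 303 TPM in the dark and 84.6, 88.8 and 88.6 TPM in the light.

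Genes of mitochondrial stress, which encode alternative respiration and carriers of the inner membrane, rose at least 2-fold in 6 of 9 tested. The dicarboxylate carrier DIC2 was at 13.7, 11.8 and 11.7 TPM in the dark and at 339, 356 and 359 TPM in the light, and DIC1 (UCP5) at 12.1, 10.5 and 7.98 and then 218, 217 and 210.3 TPM. OM66 (BCS1), an outer membrane protein, went from 6.296 ± 0.205 to 84.6 ± 0.859 TPM, and the external NADH dehydrogenase NDB2 from 7.24 ± 0.737 to 28.6 ± 0.683 TPM. The lit libraries of all 4 lay above the dark ones. AOX1D was lower, from 6.55 ± 0.783 to 1.92 ± 0.245 TPM.

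Detoxifying enzymes were mixed. UDP-glycosyltransferases, which attach sugars to hormones and toxins, rose at least 2-fold in 17 of 51 tested genes and fell in 3, and glutathione transferases rose in 11 of 47 and fell in 1. The large cytochrome P450 family was closer to the genome, with 18 of 137 higher (13.1%) and 9 lower (6.57%). Scavenging enzymes for peroxide and superoxide moved both ways: of 16 genes 8 were higher and 5 lower, beside 26.1% and 30.3% of all genes. MDAR2 and APX2 rose at least 2-fold, from 71.2 ± 3.91 to 146 ± 2.05 TPM and, in turn, from 0.0706 ± 0.0717 to 1.603 ± 0.554 TPM. None fell 2-fold. The summed level barely moved, from 5087 ± 17.03 to 5042 ± 33.4 TPM. APX1, the cytosolic ascorbate peroxidase, was up by 0.83 on the log2 scale and the catalase gene CAT3 down, with a log2 change of -0.62.

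Sulfate assimilation supplies cysteine for glutathione, and 6 of its 9 tested genes rose at least 2-fold. APR3, a plastid reductase at the rate-limiting step, was at 116, 117 and 121 TPM in the dark and at 554, 567 and 561 TPM in the light, and APR1 and APR2 rose from 46.4 ± 1.78 to 132 ± 0.1498 TPM and, in turn, from 142 ± 9.501 to 370.2 ± 8.39 TPM. LSU2, a marker of low sulfur, rose from 11.7 ± 1.59 to 64.2 ± 2.73 TPM. The root uptake transporter SULTR1;2 was the one lower gene, from 13.6 ± 0.7104 to 6.09 ± 0.531 TPM.

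Of nitrate and amino acid genes the direction was downward. The list for branched-chain amino acid and proline breakdown covers pathways that feed respiration when sugar is short. All 8 of its genes fell, beside 30.3% of all genes, 2 of them by at least 2-fold, with a median of -0.89. GDH2, a glutamate dehydrogenase, was at 379.8, 369.5 and 378 TPM in the dark and at 139.5, 138 and 142 TPM in the light. ERD5, the proline dehydrogenase, was at 304, 304 and 300.2 TPM in the dark and at 116, 113 and 118 TPM in the light. P5CS1, which starts proline synthesis, was at 31.96, 32.5 and 27.3 TPM in the dark and at 185, 192 and 192 TPM in the light. The groups lay apart in all 3, with breakdown lower and P5CS1 higher in the light, while its copy P5CS2 did not pass the test (114 ± 17.2 to 113 ± 0.299 TPM; log2 change -0.13 and called without flu dark replicate 3). Of 8 nitrate genes 5 were lower and none higher, beside 30.3% and 26.1% of all genes. Only UPM1 fell at least 2-fold, from 206 ± 5.08 to 98.8 ± 3.27 TPM. The nitrate reductase gene NIA2 went from 1181 ± 113 to 751 ± 7.84 TPM.

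Trehalose 6-phosphate reports the sugar status of the cell, and the genes around it moved both ways. Of its phosphatase genes, 5 rose at least 2-fold: TPPJ, TPPG, TPPE, TPPF and TPPA (ATTPPA) by 2.43, 2.37, 2.19, 1.35 and 1.14 on the log2 scale. Of the class II synthase-like genes 4 fell at least 2-fold, TPS8 from 81.4 ± 8.77 to 20.9 ± 1.62 TPM, TPS10 from 61.9 ± 3.81 to 20.7 ± 0.456 TPM, TPS9 from 66.1 ± 7.08 to 23.6 ± 0.766 TPM and TPS11 from 73.4 ± 5.34 to 35.1 ± 1.2004 TPM, whereas TPS5 rose from 5.92 ± 0.639 to 14.3 ± 0.5802 TPM, TPS6 (ATTPS6) was lower by less than 2-fold (-0.20, a call lost without flu light replicate 1), and TPS7, at 70.9 ± 14.7 TPM in the dark and 74.7 ± 1.24 TPM in the light, did not pass the test, although without flu dark replicate 3 it was lower, with a log2 change of -0.0855. TPPH and TPPB were lower and TPPD higher, by less than 2-fold, and TPPI did not pass the test. In starch metabolism, GBSS1, the granule-bound synthase that makes amylose, was at 13.5, 13.3 and 14.5 TPM in the dark and at 146, 147 and 142 TPM in the light. The amylase gene BAM1 was at 39.4, 38.02 and 39.6 TPM in the dark and at 251, 249 and 268 TPM in the light. Both rose without overlap, as did BAM3 (CT-BMY) from 255 ± 4.26 to 695 ± 9.32 TPM; 4 of the 12 listed genes rose at least 2-fold and none fell 2-fold. The hexose transporter STP1 fell from 409 ± 21.5 to 141 ± 2.196 TPM, and STP13 (MSS1) rose from 21.97 ± 2.21 to 79.9 ± 0.983 TPM.

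In the plastid, most structural genes moved little. None of 15 Calvin cycle genes changed 2-fold. Of 21 light-harvesting genes 12 were lower and 5 higher, 1 of these by at least 2-fold, beside 30.3% and 26.1% of all genes. Their sum was 43266 ± 4442 TPM in the dark and 35823 ± 1034 TPM in the light. The dark mean was raised by replicate 3, the library furthest from its group, at 48384 TPM. Dark replicates 1 and 2 were at 40413 and 41002 TPM, and the lit libraries at 35509, 36979 and 34983 TPM. Of 18 tetrapyrrole synthesis genes FC1, the ferrochelatase that makes haem for uses outside photosynthesis, alone changed 2-fold: it was at 29.2, 30.6 and 22.98 TPM in the dark and at 219.7, 230.3 and 231 TPM in the light. Its copy FC2 went from 55.6 ± 1.72 to 68.99 ± 2.92 TPM, so the lit libraries separated from the dark ones far more in FC1. In carotenoid synthesis BETA-OHASE 2, a hydroxylase of the xanthophyll branch, went from 13.7 ± 1.09 to 98.8 ± 3.88 TPM, and ABA1, the epoxidase of the xanthophyll cycle, from 69.1 ± 5.77 to 156 ± 4.57 TPM. Of the nuclear sigma factors, which direct the plastid RNA polymerase, SIG5 rose at least 2-fold and SIG1 (SIGA) by 0.40 on the log2 scale.

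Light signalling and clock genes rose as well. HY5 and HYH, bZIP factors that promote greening, went from 23.1 ± 0.895 to 78.3 ± 0.878 TPM and, in turn, from 55.5 ± 1.48 to 198 ± 9.096 TPM, and the SPA genes, whose products work with COP1 in removing them, also rose, SPA1 from 19.8 ± 2.76 to 67.01 ± 1.04 TPM and SPA4 from 10.8 ± 1.89 to 38.8 ± 0.562 TPM. Photoreceptor genes were lower for CRY1, CRY2 and PHYA, with log2 changes of -0.98, -0.54 and -0.46, and higher for PHYB at 1.00. Of 13 clock genes 11 were higher and 1 lower, beside 26.1% and 30.3% of all genes. By at least 2-fold 6 rose, including LNK1 from 2.51 ± 0.294 to 57.8 ± 0.341 TPM and CCA1 from 47.03 ± 3.25 to 153 ± 2.02 TPM.

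Cell wall families differed in direction. By at least 2-fold, xyloglucan transferases and arabinogalactan proteins fell more often than they rose, and expansins rose more often than they fell. Of 28 tested cellulose synthases 1 rose (3.57%) and 2 fell (7.14%) at least 2-fold, beside 9.37% and 3.68% of all genes, with a median of -0.092. Xyloglucan transferases, which cut and rejoin wall polymers during expansion, fell at least 2-fold in 12 of 27 tested and rose in 2, with a median of -0.87 and a sum that went from 2830.2 ± 189.8 to 1693 ± 4.74 TPM; with a pseudocount of 5 TPM 7 fell. XTH24 was at 908, 903 and 721 TPM in the dark and at 215, 210.4 and 224 TPM in the light. XTH18 was at 29.2, 28.9 and 27.98 TPM in the dark and at 165, 157 and 163 TPM in the light. XTH18 and XTH19 were thus opposite to the family, without overlap, the latter going from 19.6 ± 0.784 to 89.5 ± 2.74 TPM. Arabinogalactan proteins, heavily glycosylated proteins of the cell surface, fell in 9 of 41 (5 with a pseudocount of 5 TPM) and rose in 3: FLA9 fell from 309.9 ± 4.65 to 97.6 ± 3.98 TPM, while AGP1 rose from 35.4 ± 1.77 to 322 ± 11.4 TPM. Expansins, which loosen walls, rose in 5 of 25 and fell in 2, EXPA8 and EXPA7; the latter is the root hair marker given above, and the root markers CASP1 and EXPA18 fell beside it while SCR rose.

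Transport families differed in how many members rose. Of 25 aquaporins, the water channels of plasma and vacuolar membranes, 7 rose and none fell at least 2-fold, and their sum went from 8806 ± 167 to 10808 ± 83.9 TPM. PIP2;3 (RD28) was at 44.2, 45.1 and 47.02 TPM in the dark and at 457, 468 and 462 TPM in the light, and its neighbour and near copy PIP2;2 (PIP2B) went from 172 ± 6.12 to 690.2 ± 10.5 TPM; reads may be shared between them. ABC transporters rose in 12 of 91 (13.2%, beside 9.37% of all genes) and fell in 1, and nitrate and peptide transporters rose in 5 of 26 and fell in 2. Of 24 sugar transporters 9 were higher and 9 lower, beside 26.1% and 30.3% of all genes, 5 and 2 of them by at least 2-fold. The summed level went from 1314 ± 61.3 to 960.3 ± 6.301 TPM, with STP1 and SWEET11 the most abundant.

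Families that serve every cell changed little. No 2-fold change was found among 68 ribosomal protein, 28 translation initiation, 23 histone, 15 tubulin, 28 replication, 7 kinesin or 13 cyclin-dependent kinase genes. Small shifts were called there: 21 of 68 ribosomal protein genes fell and 3 rose, and 11 of 23 histone genes fell and 2 rose. Of 28 initiation factors 8 rose and none fell. At any size 30.3% of all genes fell and 26.1% rose, so the 21 and the 8 lie near the shares of all genes.

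Among genes in no family or list counted here, PP2-B13, an F-box gene of the phloem protein type, was at 1.67, 1.62 and 1.98 TPM in the dark and at 167, 157 and 158 TPM in the light, and its neighbour PP2-B14 went from 0.766 ± 0.189 to 79.4 ± 1.12 TPM. ASG4, named from a germination mutant, rose from 1.19 ± 0.0994 to 126 ± 4.11 TPM. Families were searched by symbol, so genes listed here, ASG4 among them, may still belong to one. The unnamed loci AT3G29000 and AT1G24580 rose from 1.66 ± 0.431 to 164 ± 1.399 TPM and, in turn, from 3.31 ± 0.661 to 200.1 ± 10.8 TPM. Locus AT2G22880 was listed at 0 in every dark library and at 55.1, 56.9 and 70.96 TPM in the lit ones. OXS3, linked to tolerance of oxidative stress, was at 109, 101 and 103 TPM in the dark and at 14.1, 13.8 and 13.1 TPM in the light. DEWAX (AT5G61590), a repressor of wax synthesis in the dark and itself an ERF-type factor that the search by symbol did not count, was at 176, 178 and 209 TPM in the dark and at 24.7, 24.8 and 23.1 TPM in the light. Both fell without overlap, as did KMD1 (AT1G80440), a kelch F-box protein that removes cytokinin response regulators, from 109 ± 1.96 to 14.9 ± 0.541 TPM, and OFP16 from 12.4 ± 0.416 to 0.856 ± 0.231 TPM.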

How the data were processed

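Total RNA was sequenced on a DNBSEQ instrument, per the labels' protocols. The authors deposited 1 table of TPM for 48359 transcripts and 12 libraries, of which 6 columns were used. The tools named in the submitters' processing notes are kallisto 0.46.2 and sleuth 0.30.0, and the build is TAIR10; index, strand and filters were not stated there. The deposited TPM values sum to the same total in each library, so they are shares without depth, from which neither counting error nor detection limits can be had. Near-identical copies share reads.

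Transcripts were summed by locus to 27655 genes and named from RefSeq (TAIR10.1), in which 27445 were found. The genes that reached 1 TPM in 3 or more of the 6 libraries were tested on log2(TPM + 1) with limma 3.58.1 in R 4.3.3, a model of the 2 group means with a trend in the spread, two-sided, with p-values adjusted by Benjamini-Hochberg over all 19187 genes and called below 0.05, alone or with a 2-fold change. On simulated data 71.2%, 88.1% and 100% of genes changed 1.5-fold, 2-fold and 4-fold were recovered. The simulation changed 66 or 67 genes per size, far fewer than were called here. It held only genes with a dark mean above 1 on log2(TPM + 1), so these shares do not cover weaker genes. Families (72) came from gene symbols and 25 lists from textbook pathways; 4 loci that RefSeq does not name were left out. The members and lists were chosen with earlier results of these data known. Named are up to 4 members of a set with the largest changes of at least 2-fold, no overlap and 5 TPM, the 12 largest rises and falls among transcription factors and among other genes, and, where a set has none, its 2 most abundant members; genes described at length elsewhere were left out, and all others were chosen after their values were seen. Summaries used Python 3.11.15 with pandas 2.3.3, and figures matplotlib 3.10.9. Other settings tried were a pseudocount of 0.1 or 5 TPM, a filter of none or 5 TPM, quantile and median-ratio scaling, a replicate block, robust variance and leaving out each library.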

Additional observations from a re-analysis of the deposited data

How the results depend on the processing

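All 5 counts over all genes stayed within 1.5 times of the values given, except 1: with a pseudocount of 5 TPM 351 genes fell at least 2-fold, in place of 707. Leaving out each library in turn gave 4022 to 5246 higher and 4824 to 7069 lower genes, and 1506 to 1833 and 641 to 715 at least 2-fold. Of 220 single genes, log2 changes turned sign for CA1 (0.107), P5CS2 (-0.0499) and ABA3 (-0.103) under quantile normalization. They also did when libraries were left out for P5CS2 (-0.127 to 0.0761), ABA3 (-0.0394 to 0.106) and TPS7 (-0.0855 to 0.19002), each lowest without flu dark replicate 3; the causes were not tested. Of 210 counts of family and list members changed at least 2-fold, 47 moved by over 1.5 times with a pseudocount of 5 TPM, 19 with 0.1 TPM, 17 with the filter at 5 TPM, 16 with quantile normalization and 9 with median-ratio scaling, and 10 to 15 when a library was left out. A fit with the replicate block gave 4785 higher and 5412 lower genes, 1799 and 706 at least 2-fold; libraries with the same number did not deviate together (correlations -0.033, -0.034 and -0.079), so the number was not taken as a pairing. TPM holds no depth, so what depth limits could not be computed.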

Other observations

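Genes that changed often lay next to each other. Of the 1797 genes at least 2-fold higher that have a further tested gene after them on the chromosome, 323 (17.97%) were followed by one that was also at least 2-fold higher, and of 706 lower genes 85 (12.04%) were followed by a lower one, against 9.37% and 3.68% of all genes; no test was made, and neighbours include gene copies that share reads. There were 18 runs of 4 or more consecutive tested genes that moved the same way. Runs of falls included SAUR genes on 3 chromosomes: SAUR61 to SAUR65 on chromosome 1, SAUR26 to SAUR29 on chromosome 3 and the 6 genes from SAUR49 to SAUR5 on chromosome 4. Runs of rises included 6 neighbouring loci from AT1G72900 to AT1G72950 on chromosome 1, among them TIR, with log2 changes from 1.73 to 3.39, and the 4 methyltransferase genes IGMT1 to IGMT4 of indole glucosinolate synthesis, from 1.11 to 4.89. On chromosome 3 the run held transcription factor genes of 3 families, bHLH34, ERF98, ERF1 and MYB15, with log2 changes from 2.30 to 5.62. On chromosome 4 WRKY28 stood in a run of 6 with the purine permease genes PUP7, PUP8 and PUP10, and on chromosome 5 the cold-responsive KIN1 and KIN2 in a run of 4.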
